A study of Rattus norvegicus with 4 samples.

Results

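Sharply positioned nucleosomes of rat sperm were taken as places on chromosome 2 where the reads of the 2 control libraries, pooled by the authors, lay close around 1 summit. A place was counted when the pooled control had an occupancy (coverage at the summit) of 12 to 40 units and a fuzziness score of at most 40, in the table for each of the 2 treatments. Rows of the 2 tables were matched where their centers lay within 10 bp. The positions were thus chosen by the pooled control occupancy and the pooled control fuzziness score. The rule found 26164 positions, which is 9.37% of the 279161 positions matched in this way. Of 126972 matched positions of the same occupancy, 99975 had a score above 40 in both tables and are called fuzzier positions here. Another 833 met the score limit in 1 table only. Since the control reads chose the positions, the control values below are a description, and the measurements that the rule did not choose are those of the treated libraries.

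All 4 libraries came from caudal epididymal spermatozoa of adult male Holtzman rats, 75 days old, with 6 animals allocated to each group. Controls, with 2 libraries, received sterile water alone. Cyproterone acetate (1 library) was given by mouth in water at 20 mg/kg/day for 60 days, and tamoxifen (1 library) at 0.4 mg/kg/day for the same time. The number of animals behind each library is not stated, and round cells were looked for under the microscope and, per the labels, were absent. Per the labels, spermatozoa were digested with 4 units of micrococcal nuclease for 2 minutes at 37 °C, DNA of about 150 bp was excised from a gel, and 10 ng went into a library with 5 rounds of PCR. The series addressed how sperm nucleosome profiles differ with and without each drug. With 1 library per treatment, a treatment and its library cannot be told apart, and no test between groups could be made.

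During spermiogenesis most histones are replaced by protamines, and only a small share of the genome stays in nucleosomes in mature sperm. Micrococcal nuclease digests the DNA between nucleosomes and leaves the stretch wrapped around the histones, so each read marks the edge of a protected fragment. A nucleosome that sits at the same place in many cells gives a stack of reads, and one that sits at shifting places gives a broad, fuzzy peak. Cyproterone acetate is an antiandrogen and tamoxifen a modulator of the estrogen receptor.

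Depth was low in all libraries. Coverage values rose in fixed steps, and the size of a step was read as the value of 1 read: 6.37 units for cyproterone acetate and 7.13 units for tamoxifen. All treated summit values lay on steps of 0.5 reads. Summed over the called positions of chromosome 2 there were 1563294.5 reads for cyproterone acetate, 1311684.5 for tamoxifen, 1170574 for the deeper control and 1067555 for the shallower control. From the steps, cyproterone acetate had 1.37 times and tamoxifen 1.14 times the depth of the deeper control. The headers do not tell control replicate 1 from control replicate 2, so the controls are named by depth. All intervals below are 95% intervals that cover counting error only, since reads from PCR without molecular identifiers are not independent molecules.

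The sharply positioned nucleosomes rested on few control reads. The pool held 3 to 9 reads at the summit, with a median of 4 and a mean of 4.06. Exactly 3 reads lay at 47.0% of the positions, 4 reads at 24.3%, 5 reads at 13.8% and 8 reads at 2.21%. The pooled control occupancy had a median of 17.4 units and ranged from 13.1 to 39.9. The pooled fuzziness score ranged from 29.8 to 39.9 with a median of 36.1 in the cyproterone acetate table. The same pooled reads had a median score of 36.5 in the tamoxifen table, so the score also moved with the scaling of a table. Reads of both controls lay at 18299 positions (69.9%), of the deeper control alone at 4230 (16.2%) and of the shallower control alone at 3635 (13.9%). At the fuzzier positions these shares were 72.8%, 14.4% and 12.9%.

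Positions just inside the limit could hardly be told from those just outside it. The 3 last to pass, at chr2:11253277-11253477, chr2:50619742-50619942 and chr2:226777717-226777917, each had 4 reads of the shallower control, none of the deeper and a mean score of 39.89 over the 2 tables. The 3 nearest outside, at chr2:107562642-107562842, chr2:165638482-165638682 and chr2:252938072-252938272, had 5 or 6 control reads and mean scores of 39.91 to 39.93. Coordinates are given as deposited, in rn6. The labels do not say whether the coordinates start from 0 or from 1, and the genes and sequences under the positions were not analysed here.

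The sharpest position in the controls, chr2:219146037-219146237, held 8 reads, all of the shallower control, with a score of 29.8. The cyproterone acetate library had 4 reads there at a score of 43.0, and the tamoxifen library 2 reads at 33.8. The next 2, chr2:120013302-120013502 and chr2:138366677-138366877, each had 4 reads from each control and a score of 29.9. At the former neither treated library had a read, and at the latter cyproterone acetate had 1 read and tamoxifen 2, with summits 70 and 50 bp away. At chr2:211545102-211545302, with 5 deeper and 3 shallower control reads, cyproterone acetate had 1 read and tamoxifen none. At chr2:104214872-104215072, with 7 reads of the shallower control, cyproterone acetate had 1 read and tamoxifen 3, with both summits 60 bp away. Thus the 5 sharpest control positions held 0 to 4 reads in a treated library, below the control number at every one. The control number pools 2 libraries, is not scaled to depth and comes from the reads that ranked these positions, so nothing is read from this.

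Many of the sharply positioned nucleosomes had no read at the summit in a treated library. Cyproterone acetate had reads at 15163 of 26164 positions (58.0%, interval 57.4 to 58.6) and none at 11001 (42.0%). Tamoxifen had reads at 14021 (53.6%, interval 53.0 to 54.2) and none at 12143 (46.4%). The mean was 1.29 reads per position with cyproterone acetate and 1.12 with tamoxifen, against 4.06 in the pool that chose the positions. Both treated libraries had reads at 9854 positions (37.7%) and neither had any at 6834 (26.1%). Cyproterone acetate alone had reads at 5309 (20.3%) and tamoxifen alone at 4167 (15.9%). Over all 279161 matched positions the shares were 44.97% for both, 23.9% for neither, 17.2% for cyproterone acetate alone and 14.0% for tamoxifen alone. These shares depend on how rows are matched. By an identical pooled control summit, the match described with the summit distances, the same number of 6834 empty positions was 11.0% of 62404. Positions with reads in both then numbered 30696 (49.2%). Those without reads were 28.5% with cyproterone acetate and 33.2% with tamoxifen. Matching by center thus kept as many empty positions but far fewer with reads in both. A zero at these depths does not show that a nucleosome was absent.

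**Figure D1:**
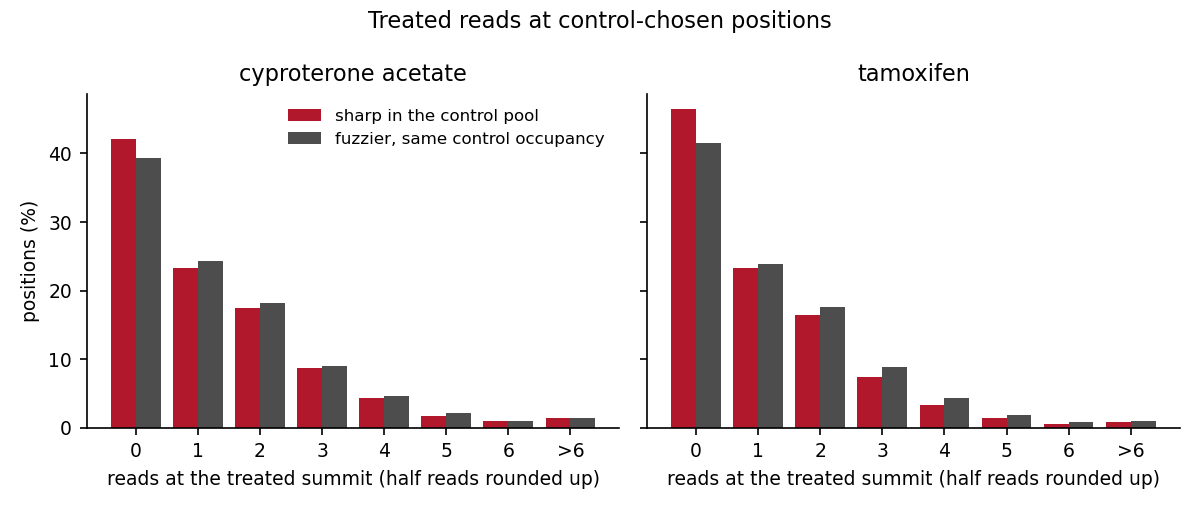
Percent of positions (y axis) by the number of reads at the summit in a treated library (x axis), for sharply positioned nucleosomes and for fuzzier positions of the same control occupancy, with 1 library per treatment. With rows matched by center, no read was seen at 42.0% of the sharp positions with cyproterone acetate and at 46.4% with tamoxifen.

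Over the whole sets, fuzzier positions of the same control occupancy were hit somewhat more often. With cyproterone acetate 60.6% of them had reads, against 58.0% of the sharp positions, and with tamoxifen 58.5% against 53.6%. The order was the reverse at positions less than 150 bp from the next called position, as given with the spacing below. Relative to depth, treated reads were 44.2% of the pooled control at the sharp positions with cyproterone acetate (interval 43.7 to 44.8) and 46.4% with tamoxifen (45.8 to 47.0). At the fuzzier positions these levels were 46.0% and 52.0%. The gap between sharp and fuzzier positions was thus larger in the tamoxifen library than in the cyproterone acetate library, with no replicate to give the spread of either.

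The level relative to control went down as the control read number that chose a position went up. At positions with 3 control reads the cyproterone acetate level was 53.1% and the mean 1.15 reads, and with 8 control reads it was 29.1% and 1.68 reads. For tamoxifen the level was 52.6% (0.943 reads) with 3 control reads and 33.5% (1.60 reads) with 8. Treated reads thus did become more frequent where the controls had more, but by less than in proportion. The control reads both chose the positions and are the divisor of this level. A fall was also seen at the fuzzier positions, from 54.6% with 3 control reads to 32.8% with 8 for cyproterone acetate, and from 60.4% to 39.5% for tamoxifen. At equal control reads the cyproterone acetate level was lower at sharp positions with 3, 4, 7 and 8 reads. With 5 reads it was 40.3% at both, and with 6 it was 38.2% at sharp and 37.0% at fuzzier positions. The tamoxifen level was lower at sharp positions at each number from 3 to 8. Where both controls had contributed reads, 59.4% of sharp positions had cyproterone acetate reads, against 54.4% where only the deeper control had and 54.9% where only the shallower had. For tamoxifen the shares were 55.8%, 47.4% and 49.6%. Positions with reads of both controls also held more control reads, with a mean of 4.28 against 3.47 and 3.595. The mean treated reads there were 1.36, 1.13 and 1.15 with cyproterone acetate, and 1.20, 0.906 and 1.01 with tamoxifen. At the fuzzier positions the shares with reads had the same order, with 61.7%, 57.4% and 58.2% for cyproterone acetate and 60.0%, 52.8% and 56.2% for tamoxifen.

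The control libraries give the same quantity measured without a drug. Sharp positions were therefore also chosen in 1 control alone, with 3 to 9 reads and a score of at most 40, and read in the other control and in the treated libraries, at positions whose summit lay within 10 bp of a pooled summit shared by the 2 treatment tables. Of 48125 positions chosen in the deeper control, 38239 could be matched. The shallower control had reads at 57.0% of them (64.7% over all 48125), cyproterone acetate at 72.8% and tamoxifen at 68.7%. These shares are not adjusted for depth, which was lowest in the shallower control. Relative to depth, the shallower control held 35.1% of the deeper control's reads there (42.7% over all 48125), cyproterone acetate 31.9% and tamoxifen 34.2%. Of 52592 positions chosen in the shallower control, 42704 were matched, and the deeper control held 30.7% of its level (35.4% over all), cyproterone acetate 27.96% and tamoxifen 31.6%. The other control was thus also below the choosing control, at 35.1% and 30.7% over matched positions and at 42.7% and 35.4% over all chosen positions. Matching by the pooled summit, which holds the reads of the other control, bears on the control values and not on the treated ones, so the differences between libraries were not tested.

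**Figure D2:**
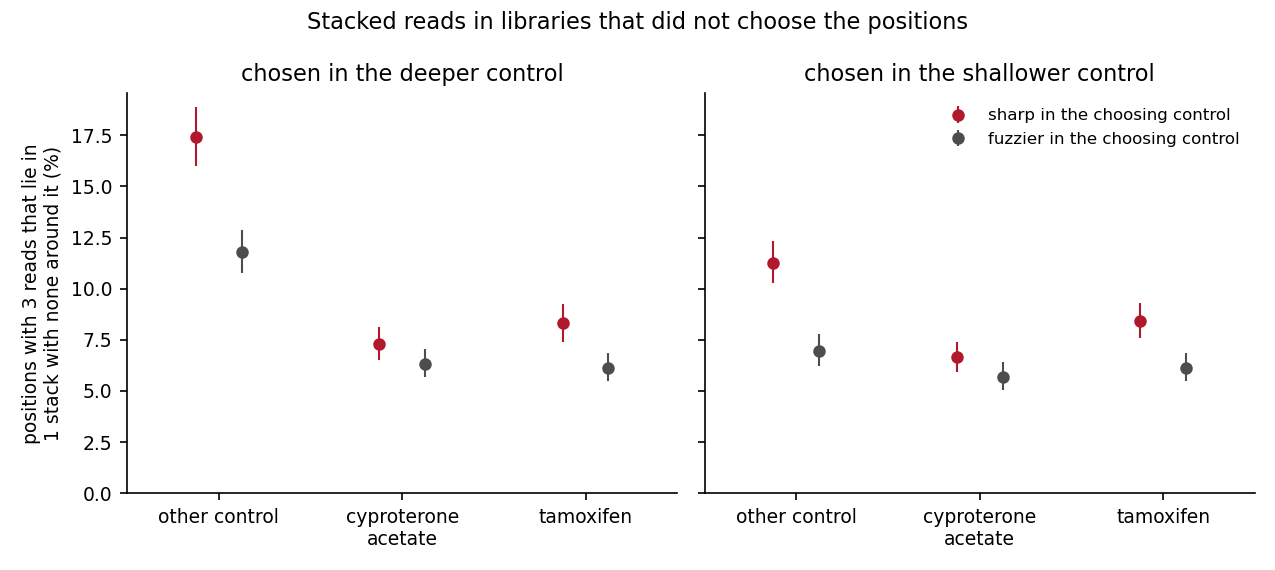
Percent of positions with 3 reads where these form 1 stack, in the other control and both treated libraries. Positions were chosen as sharp or as fuzzier in 1 control library. Chosen in the deeper control, the shares at sharp and fuzzier matched positions were 17.4% and 11.8% in the shallower control. They were 7.29% and 6.33% with cyproterone acetate, and 8.30% and 6.14% with tamoxifen.

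A few sharp positions held many reads in the treated libraries. Cyproterone acetate had at least 10 reads at 131 positions (0.501%), tamoxifen at 106 (0.405%) and both at 83 (0.317%). Over all matched positions the shares were 0.432%, 0.337% and 0.232%. The 5 positions with the highest read number in the lower of the 2 treated libraries were as follows. At chr2:24668212-24668412 there were 3 reads in each control, 30 with cyproterone acetate and 47 with tamoxifen, and the treated scores of 37.999 and 36.9 were also sharp. At chr2:120570147-120570347 the controls held 4 reads, cyproterone acetate 27.5 and tamoxifen 27. At chr2:155281992-155282192 the controls held 6.5 reads, cyproterone acetate 26 and tamoxifen 36, with treated scores of 34.4 and 35.6. At chr2:57676337-57676537 and chr2:30633837-30634037 the controls held 5 and 3 reads, cyproterone acetate 26.5 and 24.5, and tamoxifen 29.5 and 25.5. Relative to depth the 5 positions held 5.56 to 11.3 times the pooled control level with cyproterone acetate and 9.26 to 14.2 times with tamoxifen. They were ranked by both treated libraries and the rule limits their control occupancy, so these sizes follow in part from the choice.

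The opposite end of the range was set by full control positions with no treated read at the summit. At chr2:62242682-62242882 the controls had 9 reads, 8 of the deeper and 1 of the shallower, and neither treated library had any. At chr2:38151922-38152122 the 4.5 and 4 reads of the deeper and the shallower control met no treated read at the summit. The positions chr2:61253562-61253762 and chr2:168433202-168433402 had 8 reads each, all of the shallower control. At chr2:2945042-2945242 there were 6 deeper and 2.5 shallower reads. All 5 were chosen as the fullest of the 6834 positions with a summit value of 0 in both treated libraries. A position without any reads scores 62.0, as both treated libraries did at the first. The cyproterone acetate scores at the others were 69.3 to 76.7. Tamoxifen scored 79.6 at chr2:2945042-2945242. Only the summit value was thus 0 there, and the position was not without reads.

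The authors' deposited tables called many of these positions at an FDR (false discovery rate, their adjusted p-value) of at most 0.05. In the authors' deposited table for cyproterone acetate, 8341 of the sharp positions (31.9%) had lower treated occupancy, against 7.58% of all positions of that table, and 149 (0.569%) higher, against 5.86%. In the authors' deposited table for tamoxifen, 5906 (22.6%) were lower, against 5.96% of all, and 158 (0.604%) higher, against 10.7%. Of the lower calls in the authors' deposited tables, 96.0% with cyproterone acetate and 98.1% with tamoxifen were positions with no treated read at the summit. Fuzziness was called higher in the authors' deposited table at 8920 positions (34.1%) with cyproterone acetate, against 5.97% of all, and at 7705 (29.4%) with tamoxifen, against 6.08%. Lower fuzziness was called in the authors' deposited tables at 1 position in each, against 10.1% and 12.5% of all. The rule chose positions for their high control occupancy and low control score in these same contrasts, so nothing is read from these shares.

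The fuzziness of the treated reads was not used to choose the positions, while the pooled control score had to be at most 40. Among positions with treated reads, the median fuzziness score was 44.1 with cyproterone acetate (quartiles 39.1 and 52.2) and 42.2 with tamoxifen (38.2 and 51.0). At the fuzzier positions the medians were 47.3 and 46.7. The score has a lowest value at each read number, reached where all reads lie in 1 stack with none around them. That value was 39.1 for 1 read with cyproterone acetate and 38.2 with tamoxifen, so a lone read with no neighbours already passes the limit of 40. Of sharp positions with 1 treated read, 48.3% were at that lowest value with cyproterone acetate and 55.8% with tamoxifen. Shares of sharp positions are therefore given over positions with at least 3 treated reads.

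**Figure D3:**
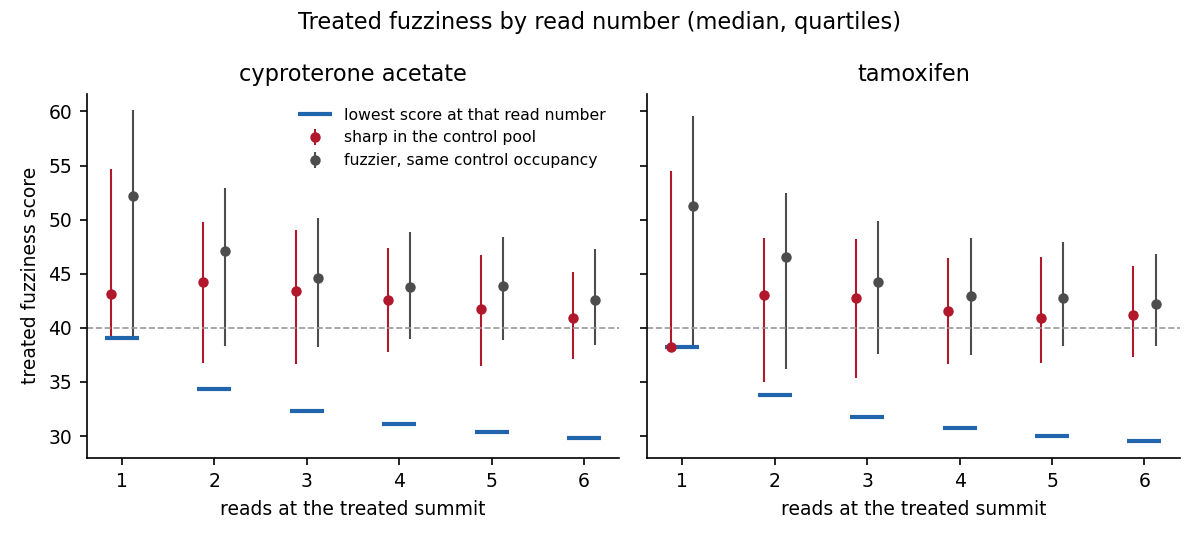
Treated fuzziness score (y axis) against the treated read number at the summit (x axis) in both treated libraries, for sharp and for fuzzier control positions, as medians with quartiles. Scores are lower at the sharp control positions at matched read number, with medians at 3 reads of 43.4 against 44.6 for cyproterone acetate.

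With at least 3 reads, the positions that were sharp in the controls were sharp more often in the treated libraries too. In the cyproterone acetate library 1561 of 4371 (35.7%, interval 34.3 to 37.2) had a score of at most 40, against 28.4% (27.7 to 29.0) of the fuzzier control positions. In the tamoxifen library 1349 of 3456 (39.0%, 37.4 to 40.7) were sharp, against 31.5% (30.8 to 32.2). These intervals did not overlap in either library. They treat the positions of 1 library as independent, and there is no replicate library of either treatment to set beside them. Exactly 3 reads formed 1 stack at 8.71% of sharp and 5.96% of fuzzier control positions with cyproterone acetate, and at 9.64% and 6.91% with tamoxifen. The tendency was thus also seen in the share of single stacks, which does not rest on the scaling of a table. Most sharp control positions with 3 or more treated reads were nevertheless not sharp there.

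Single stacks were also counted with the controls taken apart. Of positions with 3 reads in the shallower control, those chosen as sharp in the deeper control had 1 stack at 17.4% and the fuzzier ones at 11.8%. At the same positions the shares were 7.29% and 6.33% with cyproterone acetate, and 8.30% and 6.14% with tamoxifen. Chosen in the shallower control, the shares were 11.3% and 6.96% in the deeper control, 6.64% and 5.70% with cyproterone acetate and 8.43% and 6.14% with tamoxifen. With positions that could not be matched included, which removes the condition on the pooled summit, the shallower control had shares of 14.9% and 10.8% and the deeper control 9.73% and 7.05%. Whether recurrence differed between the other control and a treated library was not tested. Over all positions with 3 reads the libraries already differed, with 14.9% for the shallower control, 10.3% for the deeper control, 8.03% with tamoxifen and 6.76% with cyproterone acetate. This order was the reverse of the order of depth, and the part of depth in the difference was not tested. In each pair the share was higher at the positions chosen as sharp. With cyproterone acetate, however, the counting intervals of sharp and fuzzier positions overlapped. They were 6.51% to 8.14% against 5.68% to 7.03% when chosen in the deeper control, and 5.93% to 7.41% against 5.06% to 6.40% in the shallower. With tamoxifen and in the other control they did not overlap. These intervals likewise treat positions as independent and give no spread between libraries.

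Among the 3-read sharp positions of the pool, single stacks were common when all reads came from 1 control. All 3 reads formed 1 stack at 924 of 2876 positions with 3 deeper reads (32.1%) and at 896 of 2277 with 3 shallower reads (39.4%). With 2 deeper and 1 shallower read the count was 770 of 3614 (21.3%), and with 1 and 2 it was 855 of 3532 (24.2%). Treated reads were not more frequent at single stacks: at the 3 deeper reads in 1 stack, 50.8% had cyproterone acetate reads and 41.7% tamoxifen reads, against 53.6% and 47.0% of the remaining positions with 3 deeper reads. For stacks of the shallower control the shares were 50.2% and 40.96%, against 54.8% and 51.1%. Copies of 1 fragment made by PCR and separate fragments with the same end cannot be told apart in these tables.

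Few positions had enough reads to be scored in both treated libraries. At least 3 reads lay in both at 1110 sharp control positions, and 167 of these (15.0%) were sharp in both. The share was 9.80% of 5018 fuzzier positions and 10.9% of 12062 over all matched positions. At 254 positions (0.971%) each treated library had at least 3 reads and a summit within 10 bp of the control summit, and 44 of them were sharp in both. The fuzzier and all matched positions were not counted in this way. Matching by center also favours short distances, as described below, so nothing is read from this count. The sharpest of the 254, chr2:185257267-185257467, had 4 control reads at a score of 37.9, 5 cyproterone acetate reads at 32.1 and 5 tamoxifen reads at 30.0. At chr2:53453017-53453217 and chr2:80556722-80556922 the controls had 7 reads and each treated library 3, with scores of 32.3 and 31.8, the lowest possible at 3 reads. At chr2:166211992-166212192 and chr2:188811872-188812072 the controls had 4 reads, cyproterone acetate 3 in 1 stack, and tamoxifen 4 and 3 reads.

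Treated summits lay at a median distance of 20 bp from the control summit in both libraries. Among sharp positions with treated reads, a distance of at most 10 bp was found at 45.4% with cyproterone acetate and at 43.0% with tamoxifen. At the fuzzier positions it was 43.4% and 42.5%. Over all matched positions with treated reads it was more frequent, at 57.2% and 56.5%, with a median distance of 10 bp in both libraries. A center is the midpoint of the control and the treated summit, so requiring centers within 10 bp also keeps the 2 treated summits within 20 bp of each other and favours short distances. Rows were therefore also matched by an identical pooled control summit, which uses no treated read and was chosen after the data were seen. This gave 62404 sharp positions, 11.1% of 564340.

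Under that match the distances were longer, and over all positions with reads they were nearly the same at sharp and fuzzier positions. The median was 30 bp in both libraries, and at most 10 bp was found at 25.8% of sharp and 25.3% of fuzzier positions with cyproterone acetate. For tamoxifen both shares were 24.9%. Among positions with at least 3 reads the shares were 26.7% and 23.5% with cyproterone acetate and 24.7% and 23.7% with tamoxifen. The summits of the 2 treated libraries lay a median of 40 bp apart, and 20.0% of pairs at sharp positions lay within 10 bp, against 19.7% at fuzzier ones. Within a treated read number the order changed with the number. With 1 cyproterone acetate read, 27.1% of sharp and 30.1% of fuzzier positions had a distance of at most 10 bp. With 5 such reads the shares were 31.2% and 24.1%. For tamoxifen they were 25.9% and 29.2% with 1 read, and 28.3% and 24.5% with 5.

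**Figure D4:**
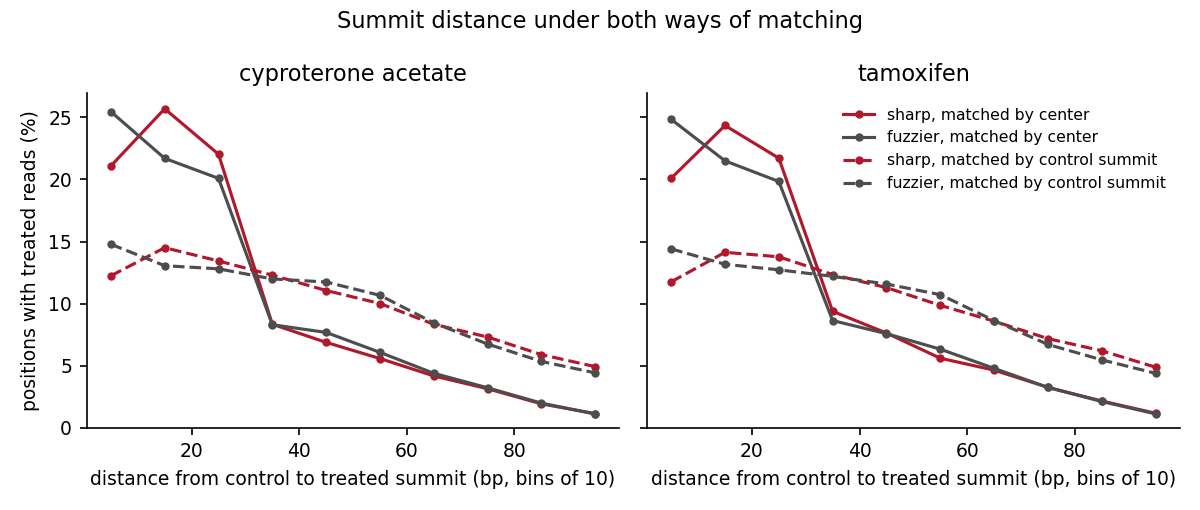
Distance in bp between the control summit and the treated summit (x axis) by percent of positions (y axis), for sharp and fuzzier control positions under both ways of matching rows. Matching by center gives a median of 20 bp at sharp positions, and matching by the pooled summit a median of 30 bp.

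Other measurements had the same order under that match. Reads were found at 71.5% of sharp and 72.6% of fuzzier positions with cyproterone acetate and at 66.8% and 70.5% with tamoxifen. With at least 3 reads, 32.5% of sharp control positions were sharp with cyproterone acetate against 27.1% of fuzzier ones, and 37.7% against 30.0% with tamoxifen. Levels relative to the pool were 51.3% and 53.3% with cyproterone acetate and 54.3% and 60.6% with tamoxifen.

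The 2 treated libraries were also compared with each other, for which the shared control drops out. Relative to depth, cyproterone acetate held 0.954 times the reads of tamoxifen at the sharp positions (interval 0.939 to 0.969), 0.885 times at the fuzzier ones (0.878 to 0.892) and 0.925 times over all matched positions. The ratio therefore lay higher at sharp than at fuzzier control positions. By pooled control score it peaked among the sharp positions, though not in the sharpest bin, and was lowest in the fuzziest: 0.967 at scores up to 34, 0.988 from 34 to 36, 0.956 from 36 to 38, 0.920 from 38 to 40, 0.911 from 40 to 45, 0.901 from 45 to 50, 0.870 from 50 to 55 and 0.837 above 55. Matched by the pooled summit it was 0.949 at scores up to 34, 0.960 from 36 to 38 and 0.841 above 55. With at least 3 treated reads, 35.1% of positions were sharp with cyproterone acetate at control scores up to 34 and 22.8% above 55, and with tamoxifen 38.8% and 22.9%. Whether this gradient belongs to a treatment or to 1 of these 2 libraries cannot be told apart.

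**Figure D5:**
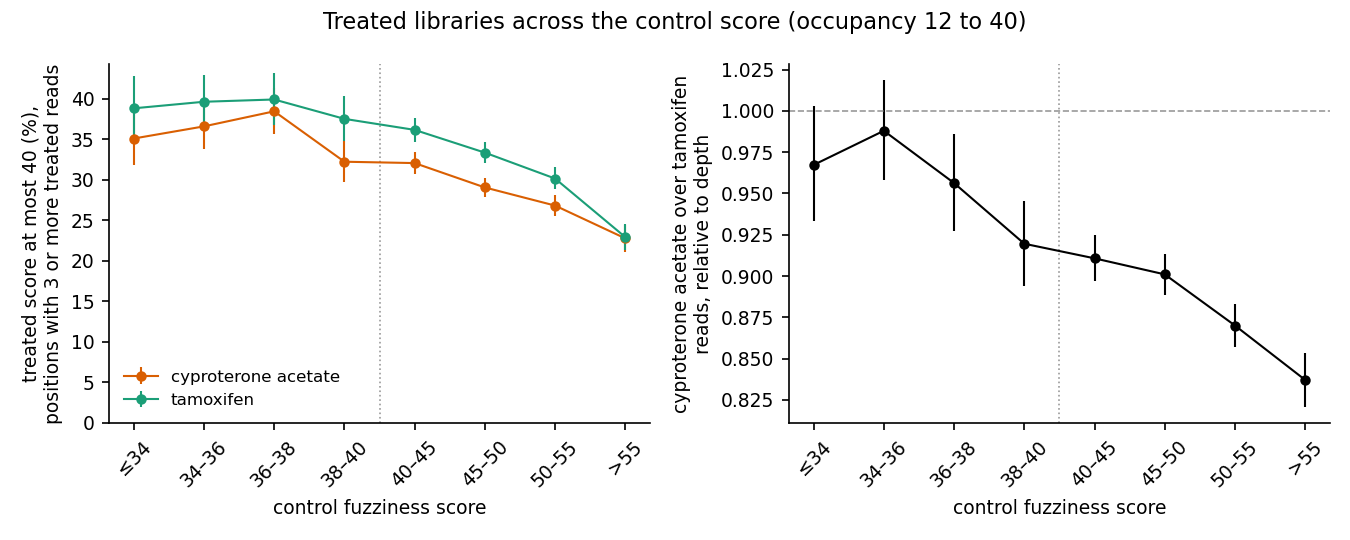
Ratio of cyproterone acetate to tamoxifen reads relative to depth, and percent of positions with 3 or more treated reads that were sharp, by pooled control fuzziness score (x axis), with 95% counting intervals. The ratio is 0.967 at scores up to 34 and 0.837 above 55.

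Single positions differed far more between the treated libraries. At chr2:210398947-210399147, with 7 control reads, cyproterone acetate had 12.5 reads at the summit and tamoxifen none. At chr2:13455222-13455422 the numbers were 13 and 1, at chr2:1393237-1393437 and chr2:24208002-24208202 they were 14 and 2, and at chr2:24868312-24868512 they were 11 and 0. In the other direction, chr2:251862297-251862497 had 19 reads with cyproterone acetate and 39.5 with tamoxifen, and chr2:140400037-140400237 had 17 and 36.5. At chr2:257511812-257512012 there were 15 and 34, and at chr2:141451617-141451817 there were 18 and 35.5. The positions higher with tamoxifen were full in both libraries, and those higher with cyproterone acetate had few or no tamoxifen reads at the summit. These are the extremes of 26164 positions, ranked by this difference.

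Sharp positions stood apart from their neighbours. The nearest other position called in the control table, at least 75 bp away, lay at a median of 200 bp (quartiles 170 and 260), against 140 bp for fuzzier positions. It was more than 200 bp away at 49.4% of sharp and 18.8% of fuzzier positions, and less than 150 bp away at 10.4% and 54.8%. Since a read nearby raises the score, this spacing is tied to the rule. Sharp positions followed each other at a median gap of 6380 bp, and 517 neighbouring pairs (1.98%) lay within 250 bp.

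Treated sharpness at positions with at least 3 treated reads was higher at sharp than at fuzzier positions in each range of distance to the next position. Distances were not matched within a range, and the part of isolation was not tested. Among positions more than 200 bp from the next one, 38.8% of the sharp and 33.0% of the fuzzier were sharp with cyproterone acetate, and 42.6% and 38.7% with tamoxifen. Between 150 and 200 bp the shares were 33.0% and 28.1%, and 36.5% and 31.1%. Under 150 bp they were 32.9% and 26.7%, and 34.7% and 29.1%, where the sharp positions numbered only 568 with cyproterone acetate and 479 with tamoxifen. The ratio of cyproterone acetate to tamoxifen reads was 0.931 (under 150 bp), 0.942 (150 to 200 bp) and 0.972 (over 200 bp) at sharp positions, and 0.879, 0.884 and 0.902 at fuzzier ones. Reads lay at 68.6% of sharp and 59.4% of fuzzier positions under 150 bp with cyproterone acetate, and at 62.4% and 57.4% with tamoxifen. Between 150 and 200 bp these shares were 56.4% and 61.6%, and 53.3% and 59.9%. Over 200 bp they were 57.0% and 62.9%, and 52.0% and 59.5%.

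Sharp positions were found along the whole chromosome. In 26 full bins of 10 Mb their density ranged from 75.4 to 122.3 per Mb with a median of 97.65, and they made up 8.73% to 10.6% of the matched positions. Cyproterone acetate reads were found at 53.5% to 62.8% of a bin's sharp positions and tamoxifen reads at 46.3% to 57.8%. The ratio of the treated libraries relative to depth ranged from 0.873 to 1.04, with a median of 0.949. The lowest shares with tamoxifen were 46.3% from 70 to 80 Mb, 47.4% from 130 to 140 Mb and 49.4% from 60 to 70 Mb.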

How the data were processed

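Nucleosome positions of chromosome 2 were read from 3 tables: each treatment against both controls pooled by the authors, and the 2 controls against each other. Bowtie2, SAMtools 1.4 and the build rn6 are named, per the submitters' processing notes. The program behind the position calls was not given in the sources used here. Summit occupancy was deposited as scaled coverage, and the fuzziness score was deposited with it. Per the file headers, the authors computed the log2 ratios, the FDR (an adjusted p-value or q-value) and the summit distances in bp. In the treatment tables the columns headed control were read as the treated library and those headed treat as the pooled controls, from their step sizes. Another 6 columns of library values were not used here, and the chromosome X tables were left out.

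Occupancy was divided by the value of 1 read, and pooled values were split into reads of each control, which resolved 100% of them. On 20000 simulated positions all splits were recovered and 425 of 425 members were found. Shares have exact binomial intervals, and read levels and ratios have exact conditional binomial intervals (Python 3.11.15, pandas 2.3.3, numpy 2.4.6, scipy 1.17.1, matplotlib 3.10.9).

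The positions, lists and comparisons were chosen with earlier results of these data known. Named positions were the 5 with the lowest control score, the 5 fullest in both treated libraries, the 5 fullest in the controls among those empty in both, the 5 sharpest with at least 3 reads and a summit within 10 bp in each treated library, the 5 with the largest difference between the treated libraries each way, and the 3 nearest to the score limit on each side. Positions could not be placed on genes or sequence with the references used here. Alternatives varied the score limit, the center tolerance, the occupancy range, the reads required and the controls used.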

Additional observations from a re-analysis of the deposited data

How the results depend on the processing

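Of 106 alternative values, 50 stayed within the counting interval of the reported value, or within 1.5 times for counts, and 56 moved further. Only the ratio of the treated libraries and the difference between sharp and fuzzier positions have a direction, and neither reversed under the alternatives run. The limits below apply to the control score, the treated limit stayed at 40, and shares sharp in a treated library are over positions with at least 1 read. With a score limit of 35, 8190 positions were sharp, cyproterone acetate had reads at 55.5% and tamoxifen at 50.2%, 42.4% and 48.3% of positions with reads were sharp there (39.7% and 45.8% at the limit of 40), the median treated scores were 43.2 and 40.7, and the ratio of the treated libraries was 0.969. With a limit of 45 these values were 51572, 59.7%, 55.6%, 37.8%, 42.6%, 44.7, 43.1 and 0.933. With identical centers, 11530 positions remained in the count, with reads at 30.8% and 27.3%, 37.0% and 44.5% sharp, a median cyproterone acetate score of 46.1 and a median distance of 0 bp in both libraries. With centers within 20 bp, reads lay at 64.8% and 60.0%. With occupancy from 16, 13865 positions had reads at 61.4% and 58.2%, 44.3% were sharp with tamoxifen, and the ratio was 0.918. Matched by the pooled summit, a choice made after the data were seen, 62404 positions had reads at 71.5% and 66.8% and a median distance of 30 bp in both libraries.

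With at least 2 tamoxifen reads the median score was 42.8, with at least 3 cyproterone acetate reads it was 43.1, and counting no more than 3 reads at any position gave a ratio of 0.937. The difference between sharp and fuzzier control positions in the share sharp at 3 or more treated reads was 7.34 percentage points with cyproterone acetate and 7.51 with tamoxifen. Its alternatives were added after the data were seen. It was 5.38 with cyproterone acetate when matched by the pooled summit and 12.7 with tamoxifen at identical centers. With positions chosen in 1 control it was 5.79 to 6.27 with cyproterone acetate and 6.02 to 9.76 with tamoxifen. Leaving out each control in turn gave 15959 positions without the shallower and 17708 without the deeper control, reads at 60.3% to 61.4% with cyproterone acetate and 56.3% to 58.5% with tamoxifen, 37.1% to 37.5% and 40.2% to 41.2% sharp, median scores of 44.7 to 45.1 and of 43.8 for tamoxifen either way, and ratios of 0.895 to 0.949. The cause of these movements was not tested, except that matching by center, most of all with identical centers, favours positions without treated reads by construction. No paired analysis was possible because each treatment has 1 library. Depth limits all statements on single positions, since 3 control reads are the commonest basis of a sharp position.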
